A study of Mus musculus with 20 samples.

Results

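Mouse hippocampal cultures that received glutamate together with the chelator TPA were compared with cultures that received medium only, across all genes. The comparison takes 10 of the 20 libraries of the study, 5 for each group, and they were chosen by their treatment label alone. The cells came from C57BL6 hippocampi at embryonic day 18, pooled from 4 embryos before dissociation, and had spent 10 days in vitro in Neurobasal with B27 supplement. All groups, control included, had 4 µM cytosine arabinoside, which removes proliferating cells, between days 3 and 6, and all were moved to a salt solution with calcium, magnesium and glucose (the imaging medium) for the treatment. The control group was given imaging medium only. The chelator group was held for 1 min in 10 µM TPA, tris(2-pyridylmethyl)amine, which binds zinc ions, and then for 2 min in 50 µM glutamate with 10 µM TPA. Both groups were washed, returned to their culture medium for 90 min at 37 °C and lysed. The other 10 libraries, used here for the spread and for reference, had a 2 min pulse of 50 µM glutamate, alone or with 10 µM ZnCl2.

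The control lacked both chelator and glutamate, and the 1 min step before the pulse is recorded for the chelator group only. A difference from control is thus that of the whole treatment, whose parts cannot be told apart here. Glutamate alone is set beside this difference further on, and none of the 20 libraries had TPA without glutamate. The 5 libraries of a group are biological replicates by their labels. With tissue pooled before dissociation, p-values measure the spread between these cultures, which may be smaller than that between animals. That spread was fitted to all 20 libraries of the 4 groups together.

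Glutamate opens NMDA and other receptor channels, and the calcium that enters activates kinases which phosphorylate transcription factors already bound at promoters, among them CREB and the partners of SRF. Immediate early genes are the first targets: their transcription starts within minutes, needs no new protein, and yields short-lived mRNAs, many of which encode transcription factors themselves. A later wave of genes for growth factors, enzymes and synaptic proteins follows. Zinc is stored with glutamate in synaptic vesicles of many hippocampal neurons and inhibits NMDA receptors. Inside cells zinc is bound by metallothioneins, and the zinc sensor MTF1 raises metallothionein genes and the exporter gene Slc30a1 when free zinc is high.

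In the chelator group 10 genes rose and 0 fell. They are the zinc-finger factor genes Klf4, Egr1, Egr2 and Egr4, the AP-1 subunit genes Fos, Fosb and Junb, the neuronal factor gene Npas4, the nuclear IκB gene Nfkbiz, and Cyr61, which encodes a secreted matrix protein. Fold changes ran from 1.35 for Egr4 to 3.20 for Klf4. For all 10 genes every chelator library lay above every control library, as it did for 0.742% of all genes tested. The 10 were picked for a small p in these same libraries, so this separation is no further evidence. The 10 calls are 0.0694% of the 14411 genes tested, by the quasi-likelihood test of edgeR at an adjusted p (Benjamini-Hochberg) under 0.05, as in all calls below. The count was 6 to 10 when single libraries were omitted. It was 6 without control replicate 2 and 6 without chelator replicate 5, with Egr1, Egr4, Fos and Junb lost each time. Over the 10 omissions Fos and Egr4 each passed in 2 and Junb in 3. The log2 fold change stayed within 1.11 to 1.20 for Fos and 0.40 to 0.49 for Egr4. The spread behind these p-values was fitted to all 4 groups. For the 10 genes the median coefficient of variation (SD over mean) was 11.3% in control and 8.76% in the chelator group. It was 21.2% with glutamate alone and 17.5% with added zinc. Picking the genes for a small p favours a small spread in the first 2 of these groups. The cause of the losses was not tested.

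The bases just upstream of these genes are shown because CREB, a factor that calcium signals activate, binds the CRE (TGACGTCA) and its short form (TGACG). RefSeq promoter windows on GRCm38.p6 were found for 8 of the 10 genes, and the 250 bases before the transcription start were searched on both strands. The short form was present for 8 of 8 genes, against 29.9% of the 11432 tested genes that had a window and 17.7% of all 32817 windows. The following 60-base stretches run 5′ to 3′ along each gene's own strand, with the short form (or its reverse complement) in capitals. In Egr2 the capitals also mark a serum response element (SRE), the site bound by SRF.
Fos (chr12:85473796-85473855, plus strand): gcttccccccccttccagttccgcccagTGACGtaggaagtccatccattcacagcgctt
Fosb (chr7:19310074-19310133, minus strand): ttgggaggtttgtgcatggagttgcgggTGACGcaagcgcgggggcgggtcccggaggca
Junb (chr8:84978823-84978882, minus strand): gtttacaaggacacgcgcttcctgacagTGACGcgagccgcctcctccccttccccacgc
Egr2 (chr10:67537786-67537845, plus strand): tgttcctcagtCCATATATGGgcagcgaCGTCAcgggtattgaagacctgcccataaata
Egr4 (chr6:85513667-85513726, minus strand): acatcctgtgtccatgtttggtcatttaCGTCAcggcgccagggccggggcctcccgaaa
Klf4 (chr4:55532666-55532725, minus strand): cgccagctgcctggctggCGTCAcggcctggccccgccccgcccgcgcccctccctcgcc
Npas4 (chr19:4990109-4990168, minus strand): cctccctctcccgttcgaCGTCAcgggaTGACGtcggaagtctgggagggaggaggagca
Cyr61 (chr3:145650012-145650071, minus strand): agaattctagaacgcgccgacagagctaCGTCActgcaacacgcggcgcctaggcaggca

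The nearest short CRE began 66 bases before the start for Fos, 60 for Fosb, 58 for Cyr61, 106 for Junb and 109 for Egr4. It began 232 bases before the start for Klf4, and the Npas4 pair began at 179 and 169. Egr2 had 5 windows, of which 3 held the short form. The full CRE, which contains the short form, was in 0 of the 8 and in 3.05% of the tested genes. The AP-1 site TGANTCA was in 0 of 8 (5.34% of tested genes), the SRE in 1 (Egr2; 1.44%), and the EGR site GCGGGGGCG in 2 (Fosb and Klf4; 5.72%). The core of the metal response element bound by MTF1, TGCACNC or TGCGCNC, was in 3 (Egr4, Junb and Npas4; 34.8%). The SRE was searched only in its strict form, CC and GG around bases that are all A or T. Sites more than 250 bases upstream were not searched, nor were those of Egr1 and Nfkbiz, which had no window. These are matches of letters in a window, and binding was not measured here.

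Levels below are CPM (counts relative to a common library size) scaled by TMM factors, a correction for library composition. Sums over marker lists, and the Rgs5 level given with them, are plain CPM without these factors. Library values are given in the order of replicates 1 to 5, and the replicate number was not treated as tying a chelator library to a control library.

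The FOS and JUN proteins pair to form AP-1, a transcription factor. Fos had 40.1, 33.2, 31.0, 31.7 and 39.3 CPM in control and 86.0, 76.4, 75.0, 73.0 and 78.5 CPM with glutamate and TPA. The lowest chelator library was thus well above the highest control library, and the fold change was 2.22 (log2 1.15, SE 0.19, edgeR adjusted p = 0.0213). Fosb, whose product accumulates with repeated activity, had 8.47, 7.17, 8.70, 7.45 and 8.47 CPM in control and 18.3, 18.1, 17.6, 17.0 and 18.4 CPM in the chelator libraries. These 5 chelator values were the tightest of the 10 genes, with a coefficient of variation (SD over mean) of 3.14%, and the fold change was 2.22 (log2 1.15, SE 0.12, edgeR adjusted p = 2.86e-05). Junb had 18.3, 17.9, 19.2, 19.1 and 22.8 CPM in control and 33.8, 29.5, 31.6, 30.2 and 35.9 CPM in the chelator group. Replicate 5 was the highest library of each group for Junb, the groups did not overlap, and the fold change was 1.65 (log2 0.73, SE 0.13, edgeR adjusted p = 0.0213). The other family members did not pass: Jun had a log2 fold change of 0.14 (SE 0.05), Fosl2 0.01 (SE 0.05) and Fosl1 0.37 (SE 0.57).

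The EGR factors bind GC-rich sites through 3 zinc fingers. Egr1 had 31.4, 29.3, 35.1, 35.9 and 41.8 CPM in control and 56.9, 50.3, 55.2, 53.3 and 63.1 CPM with glutamate and TPA. The fold change was 1.61 (log2 0.69, SE 0.11, edgeR adjusted p = 0.0116). Egr2 was lower in level, with 0.997, 1.45, 1.17, 1.17 and 1.302 CPM in control and 3.08, 2.42, 2.17, 2.01 and 2.67 CPM in the chelator libraries. Its fold change of 2.03 was the largest of the family (log2 1.02, SE 0.15, edgeR adjusted p = 0.00188). Egr4 had 12.1, 11.8, 12.3, 12.5 and 11.6 CPM in control and 13.9, 17.2, 17.2, 15.5 and 17.5 CPM in the chelator group. Chelator replicate 1, at 13.9 CPM, came nearest to control, and the fold change of 1.35 was the smallest of the 10 genes (log2 0.43, SE 0.08, edgeR adjusted p = 0.0213). Egr3 did not pass, at a log2 fold change of 0.08 (SE 0.18).

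Klf4, one of the pluripotency factors and a zinc-finger protein that restrains axon growth in neurons, had 0.775, 0.867, 0.687, 0.736 and 0.510 CPM in control. With glutamate and TPA it had 2.48, 2.14, 2.27, 2.18 and 2.36 CPM. It was scarce in control and above 2 CPM in every chelator library, and its fold change of 3.20 was the largest of the 10 (log2 1.68, SE 0.18, edgeR adjusted p = 2.86e-05). Its relatives Klf2 (log2 fold change -0.07, SE 0.26) and Klf6 (-0.04, SE 0.07) did not pass.

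Npas4, a bHLH-PAS factor of neurons that calcium entry induces, had 31.6, 27.3, 27.5, 25.7 and 32.7 CPM in control and 69.9, 59.1, 57.8, 60.5 and 68.5 CPM in the chelator group. The chelator libraries lay far above control, with a fold change of 2.18 (log2 1.12, SE 0.16, edgeR adjusted p = 0.00457). Nfkbiz, an IκB protein that works in the nucleus, had 1.55, 1.79, 1.47, 1.66 and 1.66 CPM in control and 2.22, 2.91, 2.91, 2.62 and 2.42 CPM with glutamate and TPA. Chelator replicate 1 was the lowest of its group, still above all control libraries, and the fold change was 1.60 (log2 0.68, SE 0.10, edgeR adjusted p = 0.00188).

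Cyr61, also called Ccn1, is a matricellular protein gene known as a target of SRF and of the YAP coactivator. It had 3.41, 3.04, 2.77, 3.63 and 4.75 CPM in control and 11.99, 8.15, 8.12, 10.1 and 10.1 CPM in the chelator libraries. The fold change was 2.76 (log2 1.46, SE 0.20, edgeR adjusted p = 0.00188). Of the 13 tested genes of the YAP pathway it was the 1 that passed, and the list's median log2 fold change was 0.03. Ctgf, its closest relative in that list, had -0.02 (SE 0.14). Markers of pericytes and fibroblasts, cells that also express Cyr61, summed to 10.2 to 12.1 CPM in control and 11.2 to 13.9 CPM in the chelator group, and 0 of the 9 passed. The sum is mostly Rgs5, at 6.00 and 6.01 CPM. The median log2 fold change of the 9 was 0.31, with 5 positive, among them Dcn at 0.41 (SE 0.24) and Pdgfrb at 0.47 (SE 0.23), and it was 0.085 without chelator replicate 1, 0.11 without control replicate 1 and 0.16 without control replicate 3. Their part in the Cyr61 result was not tested.

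**Figure D1:**
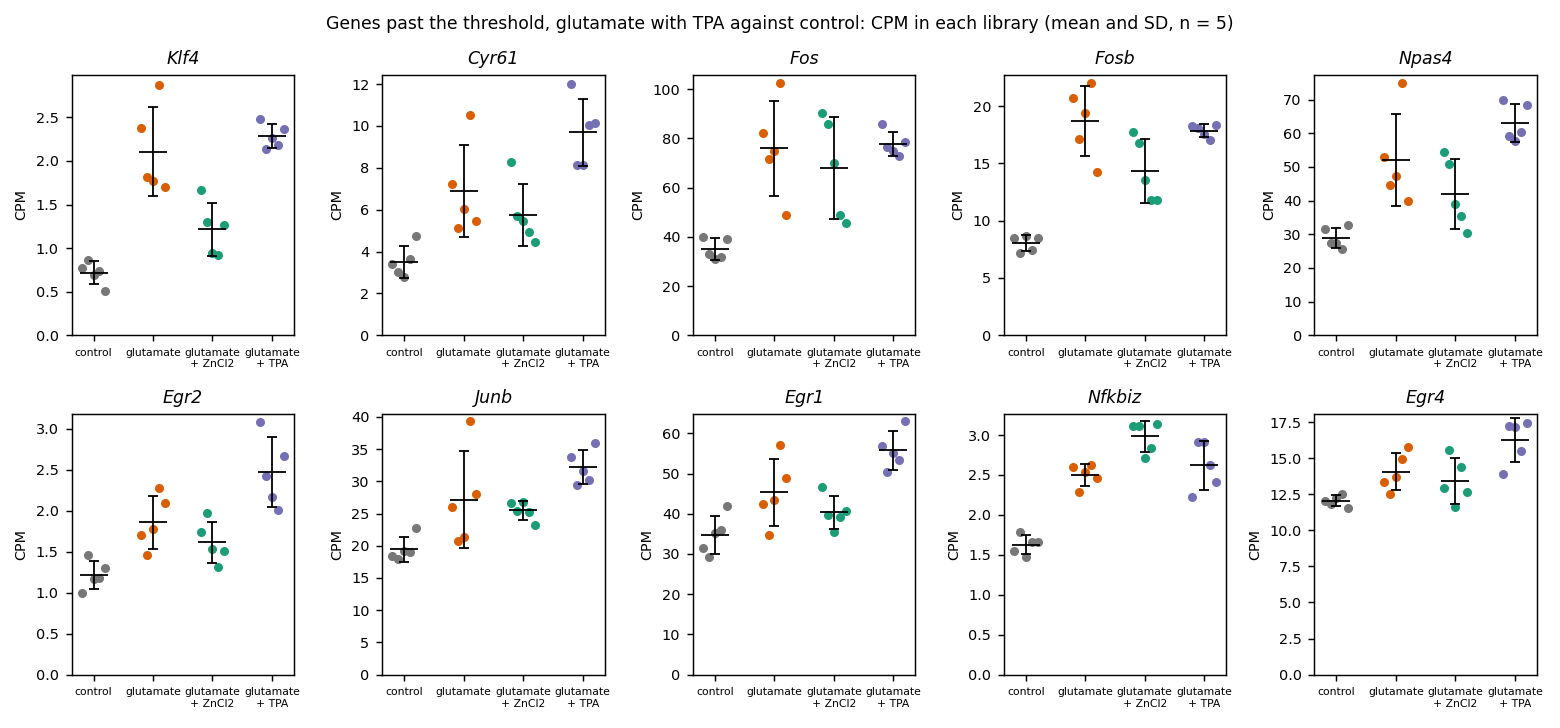
CPM of the 10 genes in each library of the 4 groups (linear axes from 0); points are libraries, bars the mean and SD of 5. In each panel the 5 chelator libraries lie above the 5 control libraries, most narrowly for Egr4 (13.9 CPM at the lowest against 12.5 CPM at the highest). The genes were picked for a small p in these libraries, and 0.742% of all genes tested separate this way.

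Per unit of gene length, in the deposited TPM, Fos was the most abundant of the 10 in both groups, with a mean of 50.3 TPM in control and 112 TPM in the chelator group. Npas4 went from 26.5 to 57.9 TPM, Egr1 from 33.9 to 54.5 TPM and Junb from 31.7 to 52.5 TPM. Npas4 thereby stood below Egr1 and Junb in control and at a mean close to theirs in the chelator group. Klf4, with the largest fold change, was among the least abundant, at 0.705 TPM in control and 2.26 TPM with glutamate and TPA. Summed over the 10 genes, control libraries held 161 to 197 TPM and chelator libraries 318 to 359 TPM. Chelator replicate 1 was the highest of its group for 5 of the genes and replicate 5 for 4.

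**Figure D2:**
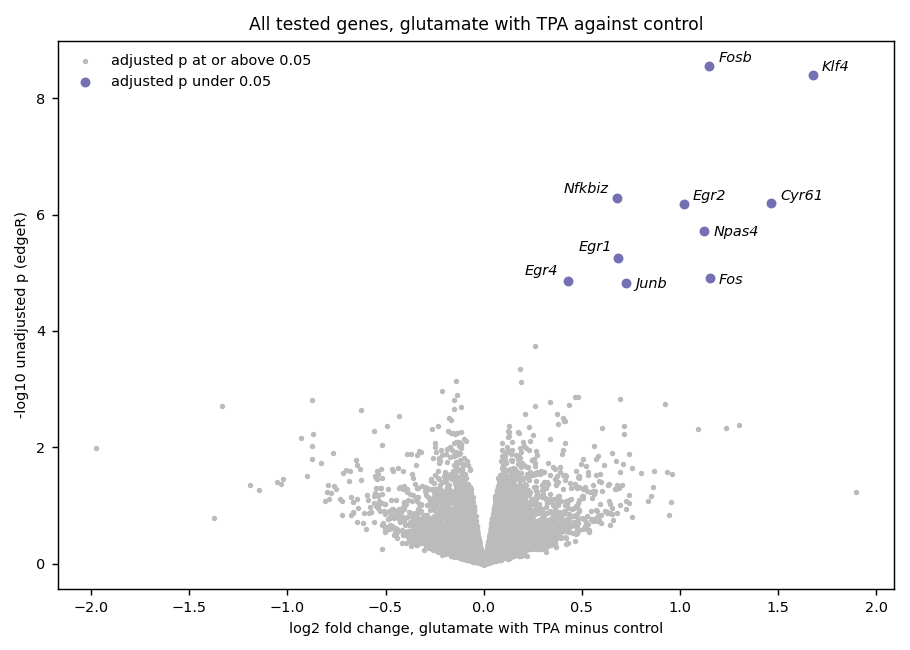
Log2 fold change (glutamate with TPA minus control) against -log10 of the unadjusted edgeR p for 14411 genes, each point a gene. The 10 genes past the adjusted threshold are named and all lie to the right of 0; the next gene by p, C77080, had an adjusted p of 0.241.

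All 10 genes belong to a list of rapid immediate early genes, of which 29 of 30 members were tested. The list was written with earlier results of these libraries known, so its count is no independent evidence of direction. Of the 29 genes 10 rose, 22 had positive fold changes and the median log2 fold change was 0.30, while over all tested genes 7109 of 14411 were positive with a median of -0.00095. In 13 of the 29 the chelator libraries did not overlap with control and were higher, against 0.742% of all genes tested, and in 0 they did not overlap and were lower (0.59% of all genes). The 3 of these that did not pass are Arc, Ier2 and Nr4a1.

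Arc, which encodes a synaptic protein that promotes the removal of AMPA receptors, had 3.41, 2.96, 4.12, 3.41 and 4.13 CPM in control and 4.89, 4.14, 4.79, 4.84 and 5.71 CPM in the chelator group. The lowest chelator library lay just above the highest control library, with a log2 fold change of 0.44 (SE 0.12, 95% interval 0.18 to 0.69). Nr4a1, an orphan nuclear receptor gene, had 24.3, 23.5, 18.2, 18.3 and 20.7 CPM in control and 34.2, 30.3, 29.02, 27.1 and 27.0 CPM with glutamate and TPA (log2 fold change 0.49, SE 0.19). Ier2 was even in control, at 12.9 to 13.6 CPM, and had 15.9 to 18.7 CPM in the chelator group (0.37, SE 0.11). The growth arrest gene Gadd45b had 0.27 (SE 0.10) and the phosphatase gene Dusp1 0.30 (SE 0.18). At the other end of the list were the stress-linked factor genes Maff at -0.27 (SE 0.25) and Atf3 at -0.18 (SE 0.32).

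The later wave of activity-regulated genes showed 0 calls among 32 tested, which is near the 0.0694% of all genes tested that passed. Their median log2 fold change was -0.025, 13 were positive and 19 negative, and 30 had a 95% interval within 1.5-fold of control in either direction. Against the same control libraries the median of this list was 0.13 with glutamate alone and 0.12 with added zinc. The differences between the 3 medians were not tested. In 3 of the 32 (Dusp6, Gadd45g and Sik1) the chelator libraries did not overlap with control and were higher, and in 0 lower, against the 0.742% and 0.59% of all genes. Bdnf, the neurotrophin gene, had 148, 139, 122, 129 and 139 CPM in control and 137, 130, 121, 121 and 119 CPM in the chelator group. The groups overlapped, and the log2 fold change was -0.11 (95% interval -0.38 to 0.16). The smallest p of the list belonged to Sik1, a kinase gene that CREB drives, with 24.6 to 25.6 CPM in control and 27.3 to 30.4 CPM in the chelator group (log2 fold change 0.18, SE 0.05, edgeR adjusted p = 0.535). Gadd45g had 11.5 to 12.9 CPM against 15.2 to 19.4 CPM (0.48, SE 0.13) and did not pass. Dusp6, the gene of a phosphatase that inactivates ERK, had 28.2 to 35.7 CPM in control and 36.3 to 39.2 CPM in the chelator group (0.30, SE 0.13) and did not pass. Gadd45g and Ier2 did pass when the 2 groups were fitted without the other libraries, which gave 12 genes. Negative values belonged to Nptx2 (-0.17, SE 0.14), a secreted organizer of AMPA receptors, and to Inhba (-0.13, SE 0.09), an activin subunit gene.

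Genes of zinc handling had levels near those in control. Of 26 listed genes 23 were tested (Slc30a2, Slc39a4 and Slc39a8 had too few counts), and 0 passed in either direction. That count is near the 0.0694% of all genes tested that passed. The median log2 fold change was -0.02, and all 23 intervals lay within 1.5-fold of control. Mt1 had 49.3, 53.1, 54.6, 53.2 and 49.6 CPM in control and 56.1, 48.2, 54.9, 51.7 and 48.5 CPM in the chelator group. Its groups overlapped fully (log2 fold change -0.001, interval -0.12 to 0.12). Mt2 had 26.7, 30.0, 29.8, 29.3 and 26.3 CPM against 33.7, 24.9, 28.4, 25.7 and 26.9 CPM (-0.02, interval -0.20 to 0.15), with chelator replicate 1 the highest.

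The exporter gene Slc30a1 had 41.8 to 45.0 CPM in control and 37.4 to 45.4 CPM in the chelator group (log2 fold change -0.02, interval -0.14 to 0.09). The importer gene Slc39a10 had -0.04 (interval -0.17 to 0.10) and the sensor gene Mtf1 -0.07 (SE 0.07). The lowest value was that of Mt3, the brain form of metallothionein, with 28.7, 26.9, 28.9, 29.8 and 32.3 CPM in control and 25.3, 20.2, 27.9, 26.6 and 25.0 CPM with glutamate and TPA. Its groups overlapped in part, at a log2 fold change of -0.23 (SE 0.09), and it did not pass. The highest was Slc39a12, an importer gene, at 0.13 (SE 0.11). Among 15 iron and copper handling genes 0 passed (median 0.01), with the copper pump gene Atp7b at 0.27 (SE 0.15).

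**Figure D3:**
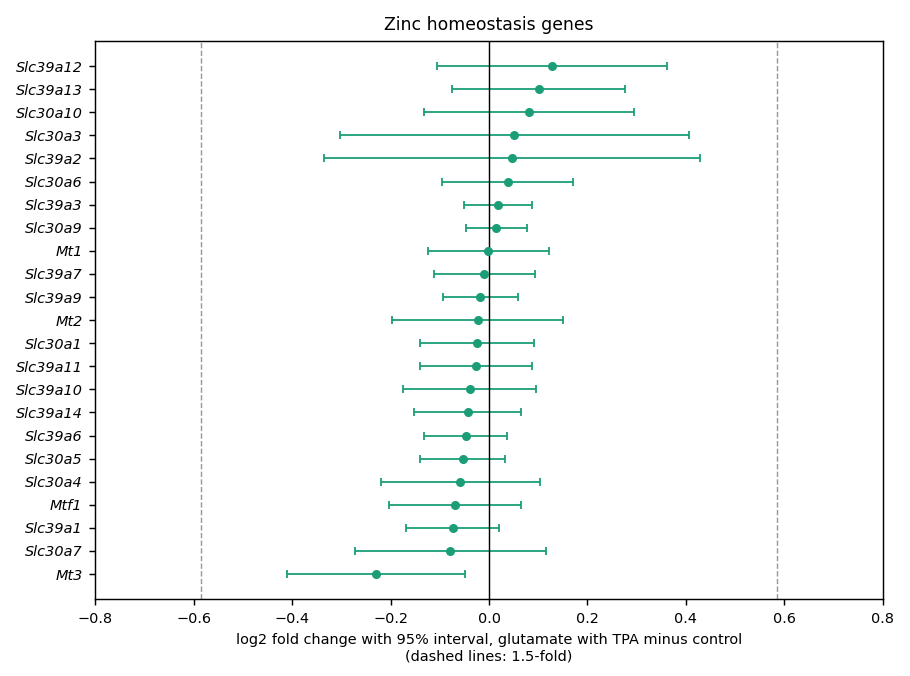
Log2 fold change with 95% interval, glutamate with TPA minus control, for the 23 tested zinc homeostasis genes; dashed lines mark 1.5-fold. The values run from -0.23 (Mt3) to 0.13 (Slc39a12), and no gene passed the threshold over all genes.

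No member of the stress lists passed. Over all genes tested 0.0694% passed, so 0 calls in lists this short is near that share. In the endoplasmic reticulum chaperone and unfolded protein list 0 of 21 passed, with 19 negative and a median log2 fold change of -0.03. The ATF4 stress response list had 0 of 24 past the threshold and a median of -0.02. The chaperone genes Hspa5 (-0.03, SE 0.14) and Pdia4 (-0.09, SE 0.09) and the ATF4 target Asns (-0.02, SE 0.06) are examples. Against the same control libraries the median of the chaperone list was 0.12 with glutamate alone and 0.17 with added zinc, and that of the ATF4 list 0.18 and 0.17. Differences between these medians were not tested. Of all 14411 genes 0 passed between the chelator and glutamate alone, and 0.513% passed between the chelator and added zinc. Cytosolic heat shock (21 tested), NRF2 antioxidant (20), hypoxia (17) and p53 (17) lists had medians from -0.02 to 0.01 and 0 calls.

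Genes of neuronal signalling had no member past the threshold, which is near the 0.0694% of all genes tested that passed. The NMDA, AMPA and kainate receptor list had 0 of 22 past the threshold and a median of 0.01, with the NMDA subunit gene Grin1 at -0.00 (SE 0.04) and the AMPA subunit gene Gria2 at -0.04 (SE 0.05). The smallest p was that of Cacng4, an auxiliary AMPA receptor subunit gene, with 42.9 to 48.8 CPM in control and 49.8 to 54.7 CPM in the chelator group (log2 fold change 0.19, SE 0.05, edgeR adjusted p = 0.771). GABA-A receptor genes had 10 of 13 negative and a median of -0.07, and neuropeptide genes 17 of 20 negative and a median of -0.11. Among lists with 3 or more tested members this median was the lowest, and that of the pericyte and fibroblast markers, 0.31, the highest. Of the neuropeptide genes the cocaine- and amphetamine-regulated transcript gene Cartpt had -0.32 (SE 0.24) and none passed. All 25 presynaptic release genes and all 22 postsynaptic scaffold genes had intervals within 1.5-fold of control. Outside the rapid genes, 37 of 38 lists had 0 calls, the exception being the YAP list through Cyr61. At the share over all genes most lists this short would hold 0 calls. Of the 38 medians 32 lay within 0.05 of 0.

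**Figure D4:**
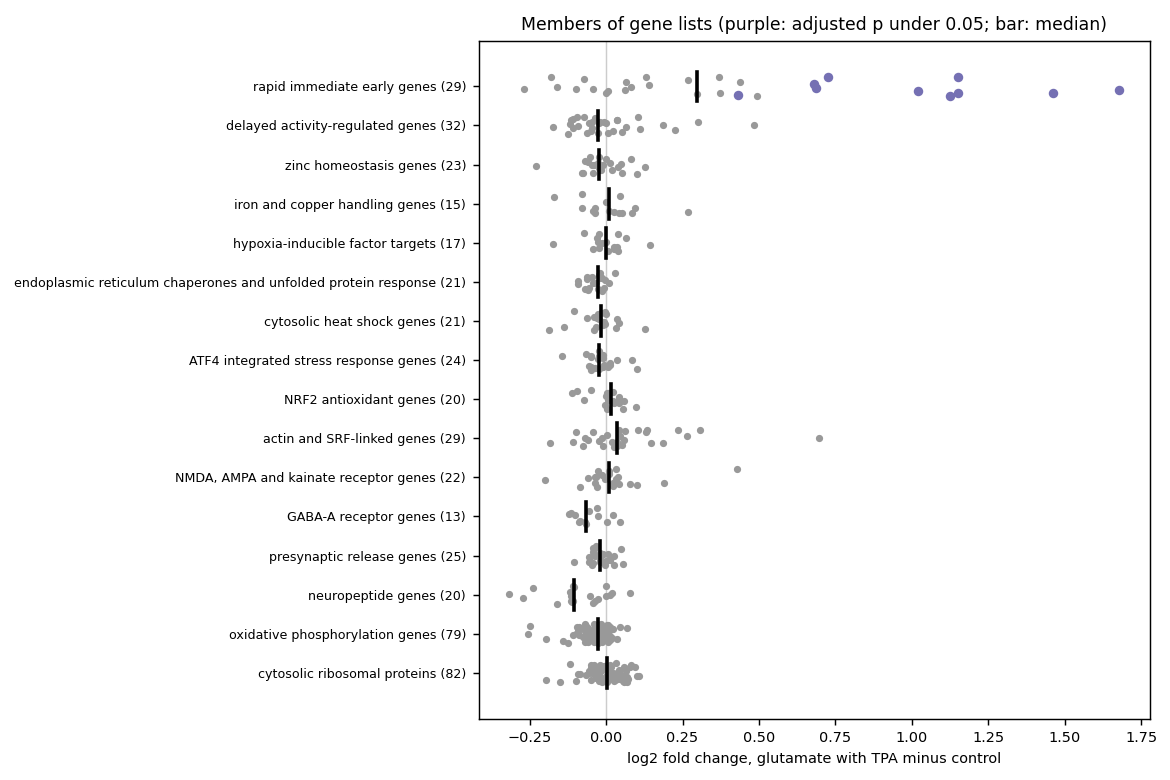
Log2 fold change (glutamate with TPA minus control) of each tested member of 16 gene lists, with the number tested in brackets; bars are medians and purple points are genes past the threshold. The 10 purple points all lie in the rapid immediate early list, whose median is 0.30; the medians of the other 15 lie between -0.11 and 0.04.

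The same 10 genes were read in the other stimulated groups, which share the control libraries, so their differences from control are not independent of those above. The 10 genes were also chosen for passing with the chelator, which favours high values and small spread in that group, so sizes and counts of calls cannot be set against each other across the groups. With glutamate alone the log2 fold changes of the 10 genes against control ran from 0.22 (Egr4) to 1.56 (Klf4), and 3 passed, Klf4, Fosb and Nfkbiz (0.0208% of all genes tested were higher). With added zinc they ran from 0.16 (Egr4) to 0.96 (Fos), and 2 passed, Fosb and Nfkbiz (0.0416% of all genes passed in either direction). As a description, Fosb had 1.15 with TPA, 1.22 with glutamate alone and 0.83 with zinc, Npas4 had 1.12, 0.84 and 0.54, and Cyr61 had 1.46, 0.97 and 0.72. Nfkbiz had its highest value with zinc, 0.87, against 0.68 with TPA.

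Tested directly, 0 of the 10 differed between the chelator and glutamate alone (edgeR adjusted p from 0.656 to 0.982). Over all genes 0 of 14411 passed, with 1030 at an unadjusted p under 0.05 where 721 would be expected with no change. The log2 differences ran from -0.07 (Fosb, interval -0.30 to 0.17) to 0.50 (Cyr61, interval 0.10 to 0.89), and 9 of the 10 were positive, with a median of 0.23. Since the 10 genes were chosen for high values in the chelator libraries, their differences from any other group lean upward in advance. The count of signs, the median and the intervals are therefore descriptions only. Of the 10 intervals 6 included 0, and those of Cyr61, Egr1, Egr2 and Egr4 lay above 0 without passing after adjustment. Between the chelator and added zinc 1 of the 10 passed, Klf4, which was higher with the chelator by 0.91 (SE 0.17, edgeR adjusted p = 0.0199). Over all genes 0.354% passed as higher and 0.513% in either direction. With the 10 genes chosen in this way, the count of 1 is a description only and cannot be set against those shares. For the other 9 genes adjusted p ran from 0.0564 (Egr2) to 0.66 (Fos).

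In Fos the chelator libraries spanned 73.0 to 86.0 CPM. Of the glutamate libraries, replicates 1 to 3 spanned 71.8 to 82.1 CPM, replicate 4 had 102 CPM and replicate 5 had 48.7 CPM. Glutamate replicate 4 was the highest of its group for 9 of the 10 genes, and over all genes replicates 4 and 5 lay farthest from their group mean (root mean square log2 deviation 0.240 and 0.249, against 0.168 to 0.182 for the other 3).

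**Figure D5:**
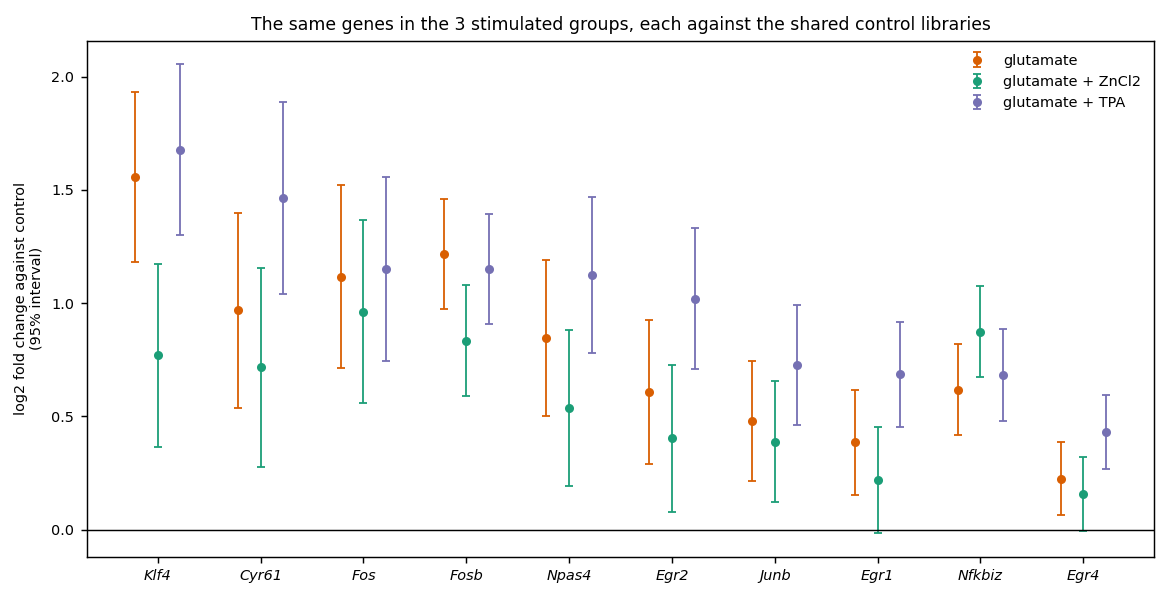
Log2 fold change against the shared control libraries, with 95% interval, of the 10 genes in cultures given glutamate, glutamate with ZnCl2, or glutamate with TPA. The chelator values run from 0.43 (Egr4) to 1.68 (Klf4), and for 6 genes the interval of the difference from glutamate alone includes 0. The genes were chosen for passing with the chelator, which favours high values in that group.

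Library totals were 36106575 to 39765787 counts in control and 28692470 to 38767979 in the chelator group, where replicates 2 and 4 were the smallest, and chelator replicate 1 stood apart from the other 9 on the first principal component (18.2% of the variance). Neuronal markers summed to 7712 to 8259 CPM in control and 7954 to 8323 CPM in the chelator group, with Stmn2, Tubb3 and Map2 leading, and astrocyte markers to 829 to 948 and 761 to 891 CPM. Oligodendrocyte (34.1 to 36.7 CPM over both groups), microglial, endothelial and pericyte lists were low, the microglial markers summing to 3.49 to 6.08 CPM, and 5 of 7 blood markers, all of them globins, were at 0. In these bulk samples, fewer cells of a type and less RNA per cell cannot be told apart. None of 12 such measures, totals included, passed a 2-sided exact permutation test (adjusted p from 0.81 to 0.913). The smallest raw p the design allows is 0.00794, which for a single measure adjusts to 0.0952, so a difference in 1 measure alone could not have passed and the test does not show that composition was equal. In edgeR 0 markers passed.

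How small a change these libraries resolve depends on expression. The median half-width of the 95% interval was 0.58 log2 units for the 1892 genes with a mean under 1 CPM, 0.24 for the 3373 genes from 1 to 10 CPM, 0.12 for the 6610 genes from 10 to 100 CPM, and 0.09 for the 2536 genes above. The interval excluded a 2-fold change in either direction for 99.4% of genes from 1 to 10 CPM and 77.0% of genes under 1 CPM. Of the 10 genes that rose, 4 lie between 1 and 10 CPM and 6 between 10 and 100 CPM. At an unadjusted p under 0.05 there were 446 genes, where 721 would be expected with no change. The authors' deposited table for this comparison also lists 10 genes at an adjusted p under 0.05, all higher, and they are the same 10. Fold changes in the authors' deposited table are shrunken, 0.56 for Fosb and 0.44 for Klf4 on the log2 scale.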

How the data were processed

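Polyadenylated RNA was sequenced as stranded libraries, per the labels' protocols. Build mm10 and these tools are named in the submitters' processing notes: featureCounts, DESeq2 1.14.1 in R 3.3.0, Trimmomatic 0.36, SAMtools 1.3.1 and HISAT2 2.1.0. The strand setting of the counting was not given in the sources used, so overlapping and antisense genes may share reads. The authors deposited whole-number counts for 24419 genes, which alone were tested here. The authors' TPM are counts divided by gene length and rescaled per library. The authors' deposited comparison table holds a mean normalized signal, a shrunken log2 fold change with its error, a Wald score, a p-value and an adjusted p-value. The deposited annotation gives gene lengths and other descriptors.

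Genes were filtered by edgeR's filterByExpr (14411 kept, 99.98% of counts) and scaled by TMM. A single edgeR 4.0.16 quasi-likelihood model with robust spread (R 4.3.3) was fitted to all 20 libraries with 4 group means. SE is the log2 fold change divided by the root of F. Intervals are 95%. A count of 3 equals 0.0754 to 0.105 CPM in the 10 libraries, which covers counting error only. "Rose", "fell" and "passed" mean an adjusted p under 0.05.

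Members, lists and tests were chosen with earlier results of these data known. The rule for named genes took up to 12 largest rises and 12 largest falls past the threshold (mean of at least 1 CPM, established symbol), 12 fixed genes (Fos, Fosb, Egr1, Arc, Npas4, Nr4a1, Klf4, Bdnf, Mt1, Mt2, Slc30a1, Slc39a10) and, of each list, up to 3 members past the threshold or the one with the smallest p. Other list members were named after their values were seen. Alternatives tried were DESeq2's size factors, library size alone, DESeq2 1.42.0, limma-voom (limma 3.58.1), the 2 groups alone, a minimum mean of 1 CPM, no filter on low counts, a block on replicate number, and each of the 10 control and chelator libraries omitted in turn. Chosen once the data had been seen were a fit without the 2 smallest chelator libraries and one without the robust spread.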

Additional observations from a re-analysis of the deposited data

Results flagged for a closer look

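Of the 54 genes named by rule, each was looked at for a library far from the other 4 of its group, 108 groups in all, and 3 were found, where about 1 in 20 groups is expected by chance. Canx, which encodes the chaperone calnexin, had 461 CPM in chelator replicate 1 and 515 to 524 CPM in the other 4 chelator libraries. Junb had 22.8 CPM in control replicate 5 and 17.9 to 19.2 CPM in the other 4 control libraries. Pcdhgb8, a clustered protocadherin gene, had 1.47 CPM in control replicate 3 and 1.05 to 1.16 CPM in the other 4.

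For 3 of the named genes the difference from control itself differed between the chelator and added zinc, in edgeR's test of chelator against zinc. Over all genes tested 0.513% passed that test in either direction. Genes were named partly for a small p against control, which rests on the same chelator libraries. The count of 3 is therefore a description only and cannot be set against that share. Klf4 was higher with the chelator by a log2 difference of 0.91 (SE 0.17, adjusted p = 0.0199). Flna, the gene of filamin A (an actin crosslinker), was higher by 0.45 (SE 0.07, adjusted p = 0.0112), with log2 fold changes against control of 0.18 with the chelator and -0.27 with zinc. Uqcrb, a subunit gene of respiratory complex III, was lower by -0.22 (SE 0.05, adjusted p = 0.0416), with -0.14 and 0.08 against control.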

How the results depend on the processing

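The count of 10 genes was the same with DESeq2's size factors, library size alone, DESeq2, limma-voom, a minimum mean of 1 CPM and no robust spread, and each of these called the same 10. It was 8 with no low-count filter (Fos and Junb lost), 12 with the 2 groups alone (Gadd45g and Ier2 gained), 7 without the 2 smallest chelator libraries (Egr4, Fos and Junb lost) and 6 to 10 over single omissions. The count of genes that fell was 0 in all 20 alternatives. Fosb, Klf4, Nfkbiz, Cyr61, Egr2 and Npas4 passed in 20 of 20, Egr1 in 17, Junb in 11, Egr4 in 11 and Fos in 10. Over single omissions the largest edgeR adjusted p was 0.0568 for Egr1, 0.0962 for Fos and 0.111 for Egr4 and Junb, and the largest over all alternatives was 0.145 for Fos and 0.227 for Egr4. Omission leaves fewer samples, and the cause was not tested further. Same-numbered chelator and control libraries correlated at 0.024 to 0.108 in their deviations and not every library correlated best with its own number, so the labels' numbers are not treated as a pairing; the fit with the replicate block called 10 genes.

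Values near 0 changed sign. Mt1 was 0.000631 with library size alone, 0.000171 with the 2 groups alone, 0.000218 with the replicate block, 0.034 without the 2 smallest chelator libraries, and -0.0294 to 0.0245 over single omissions. Mt2 was 0.061 without those 2 libraries and -0.0985 to 0.0149 over omissions, and Slc30a1 -0.0466 to 0.0226. The cause was not tested. Depth limits genes under 1 CPM, where the median interval spans 1.50-fold in each direction.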

Other observations

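Several lists leaned to one side without a member past the threshold in edgeR. Of 11 tested long RNAs kept in the nucleus, 10 had positive fold changes (median log2 0.07), with the imprinted transcript Mirg at 0.31 (SE 0.13). Of 28 semaphorin, plexin and neuropilin genes, which encode axon guidance signals and their receptors, 21 were positive (median 0.03), with Sema4g at 0.12 (SE 0.04). Of 79 nuclear genes for oxidative phosphorylation 60 were negative (median -0.03), with Uqcrb at -0.14 (SE 0.05), while cytosolic ribosomal protein genes were split, 44 positive and 38 negative. Of 29 actin and SRF-linked genes 0 passed, although several of the genes that rose are known SRF targets; Flna had 0.18 (SE 0.07) and Srf itself 0.06 (SE 0.06). Members of a list share libraries and are not replicates, so these counts are descriptions. The pericyte and fibroblast markers had the highest median of the lists, 0.31, with 5 of 9 positive. It was 0.085 without chelator replicate 1 and 0.11 without control replicate 1.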
